A study of Danio rerio with 11 samples.

Results

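Genes of synaptic vesicles and of exocytosis were followed in intraspinal serotonergic neurons (ISNs), the cells within the spinal cord that make serotonin. Members were all gene IDs whose zebrafish gene symbol begins with syt, snap25, stx1, stxbp, vamp, sv2, syn1 to syn3, syp, syngr, rab3, rab27, rims, unc13, cplx, doc2, cadps, bsn, pclo or rph3a and goes on only with digits, l or paralog letters, without synpo and sypl. Where a stem ends in a number, a further digit names another gene (such as RAB35 or STX12) and was not taken. A reading that takes those as well holds 133 IDs. The rule used here gave 110 gene IDs with 95 symbols, of 39714 IDs in the table. Of the members, 29 IDs have a symbol that another member ID also carries, since the reference gives many duplicated zebrafish genes one symbol in its mammalian form. Such genes are given by symbol and ID, and no paralog letter was assigned to them.

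Neurons release transmitter when a vesicle loaded with it fuses with the plasma membrane. A vesicle SNARE (a VAMP, or synaptobrevin) pairs with the plasma membrane SNAREs, syntaxins and SNAP25, while Munc13 proteins (UNC13) prime that assembly, complexins hold and steer it, and synaptotagmins sense the calcium that triggers fusion. RAB3 GTPases and RIM proteins tie vesicles to the active zone, the release site marked by the large scaffolds bassoon and piccolo, while synapsins gather vesicles in reserve. Monoamine neurons use the same machinery, also at varicosities along their axons.

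The cells came from Tg(tph2:GFP) zebrafish, in which the promoter of tph2, the serotonin-synthesizing enzyme of neurons, drives green fluorescent protein. They were taken 6 to 8 weeks after spinal cord injury and sorted by fluorescence. There were 6 libraries of the injury segment and 5 libraries of the distal segments. According to the methods both were dissected from the same fish, juvenile or adult animals of both sexes. All libraries thus carry the transgene and all come from injured animals, and no library of an uninjured cord enters the comparison, which asks whether ISNs at the injury differ from ISNs elsewhere in the injured cord. The labels do not say how many fish stand behind a library or whether libraries of a group are separate preparations, so p-values measure the spread between these libraries, which may be technical.

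Levels are in FPKM, the fragments of a gene scaled to its length and to the mapped fragments of the library, so that levels can be compared between genes. Between 14215980 and 19709661 fragments on genes stood behind a library. The number of gene IDs with at least 1 FPKM ran from 4530 to 16019 in the injury libraries, against 8448 to 14208 in the distal libraries, and the lowest numbers were those of injury replicates 2 and 3. Serotonergic markers fixed as a list (10 IDs) summed to 6316 to 9895 FPKM in the injury libraries, against 4075 to 11204 FPKM in the distal libraries, so the defining markers of the label were present in both groups. Tests are limma fits on log2(FPKM + 1) over 24178 genes, two-sided, with 6 against 5 libraries, and a difference is always injury minus distal on that scale, which understates the change of genes with low values. Because the libraries are bulk samples, fewer cells of a kind and less RNA per cell cannot be told apart.

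Transcripts of every step of release were present in ISNs of both segments, led by the same 3 genes. Of the 110 members, 102 were above 0 in at least 1 library, and 27 were above 0 in all 11, or 24.5% of the members, against 5.76% of all gene IDs in the table (2287 IDs). Mean levels over the 11 libraries were at least 100 FPKM for 7 members, at least 10 FPKM for 44 and under 1 FPKM for 31. In each of the 11 libraries the 3 highest members were vamp2, SNAP25 (ENSDARG00000020609) and SYT1, and these made up 45.9% to 65.6% of the summed FPKM of all members. The member sum itself ran from 0.370% to 0.855% of a library's FPKM in the injury segment, against 0.497% to 0.786% in the distal segments.

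At the level of single genes, none of the 96 members tested passed the threshold between the segments after adjustment. The lowest Benjamini-Hochberg adjusted limma p of a member was 0.838, and over all 24178 genes the lowest was 0.525, so no gene of the table passed 0.05 (0% called). At an unadjusted limma p under 0.05, 5 members were called, or 5.21% of those tested, against 2.68% of all genes tested. All 5 were lower at the injury, where 2.03% of all genes were called lower and 0.658% higher. All 5 also had means of at least 1 FPKM, as did 79 of the members tested, and 3.07% of all genes at that level were called lower. They were RIMS3, SYNGR1 (ENSDARG00000002564), STXBP4, syn2b and CPLX1. Exact two-sided permutation tests over the libraries, added after seeing the data, gave p under 0.05 for 5 of the 96 members (5.21%), all lower at the injury. A share over all genes was not taken with this test. Without any difference between the groups, a two-sided threshold of 0.05 lets up to that share of genes pass, counting both directions. That nominal share was not measured in these data, so nothing is concluded from the count of 5. The members that passed the permutation test were RIMS3, SYNGR1 (ENSDARG00000002564) and syn2b from the limma calls, and syt14b and syt13 outside them. STXBP4 and CPLX1 did not pass. Means of log2(FPKM + 1) were higher at the injury for 45 members and lower for 51. The median difference was -0.06 over the members and -0.04 over all genes. Here and below, higher or lower in mean refers to that log2 scale. Means of FPKM can point the other way, as for PCLO, with a difference of -0.42 but an injury over distal ratio of FPKM means of 1.09. The difference was under 1 in size for 79 of the 96 and under 0.5 for 58.

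**Figure D1:**
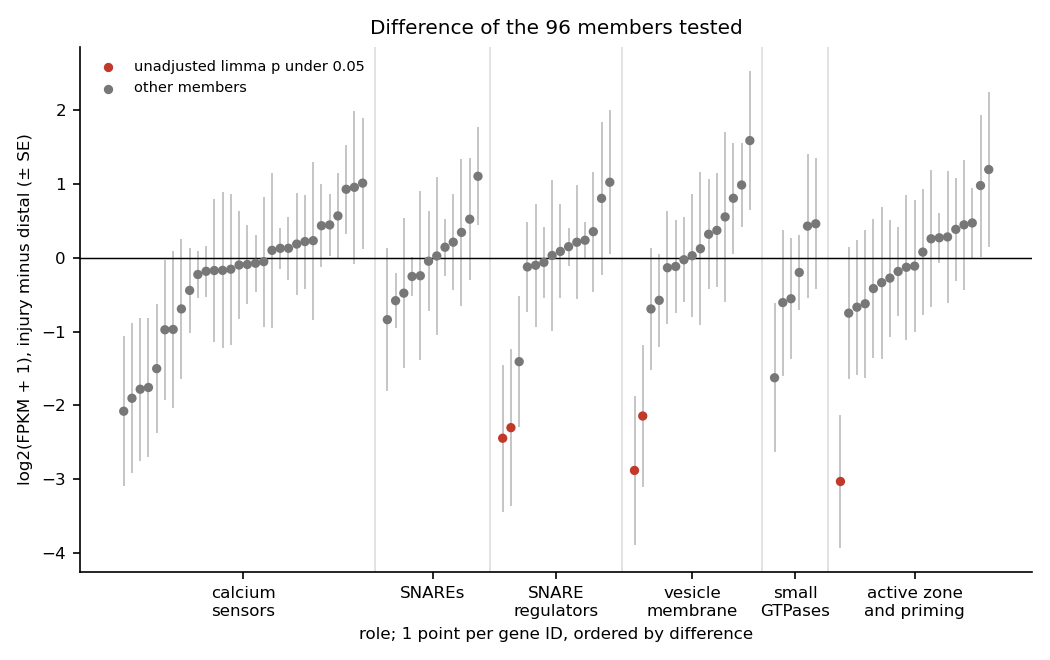
Difference in log2(FPKM + 1) between the injury segment and the distal segments for the 96 members tested, grouped by role (1 point per gene ID, bars show the SE of the limma fit, 6 against 5 libraries). Most points lie within 1 of the zero line, and the 5 members with an unadjusted limma p under 0.05, in red, all lie below it.

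The SNAREs that carry vesicle fusion were the most abundant members, and their levels overlapped between the segments. The vesicle SNARE vamp2 (ENSDARG00000056877) ran from 432 FPKM through a median of 734 to 1219 FPKM in the injury libraries, against 846, 785, 1922, 1124 and 906 FPKM in the distal libraries. The groups overlapped, with injury replicates 2, 3 and 4 below every distal library (difference -0.58, SE 0.37, limma adjusted p = 0.838). SNAP25 (ENSDARG00000020609), a plasma membrane SNARE, ran from 477 through 913 to 1247 FPKM at the injury, against 724, 878, 406, 654 and 1201 FPKM in the distal segments. It overlapped over nearly its whole range (difference 0.14, SE 0.39, limma adjusted p = 0.936). Its second ID, ENSDARG00000058117, lay lower, at 60.2, 108 and 186 FPKM (lowest, median and highest) at the injury, against 227, 169.6, 119, 18.0 and 194 FPKM in the distal segments, where replicate 4 stood far below the rest (difference -0.05, SE 0.68, limma adjusted p = 0.992). Which of vamp2 and SNAP25 led a library varied, vamp2 being highest in 2 of 6 injury and 3 of 5 distal libraries and SNAP25 in the others.

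The other SNARE members were lower in level. STX1A (ENSDARG00000058994) was listed at 0 in all 6 injury libraries, against 1.40 FPKM in distal replicate 3 and 0 in the other distal libraries. The remaining VAMPs, of which VAMP3, VAMP4, VAMP7 and VAMP8 serve recycling and endosomal membranes in most cells, had means of 1.69 to 41.7 FPKM. Of the 12 SNARE members all were tested, 6 were higher and 6 lower in mean at the injury, and none had a limma p under 0.05.

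**Figure D2:**
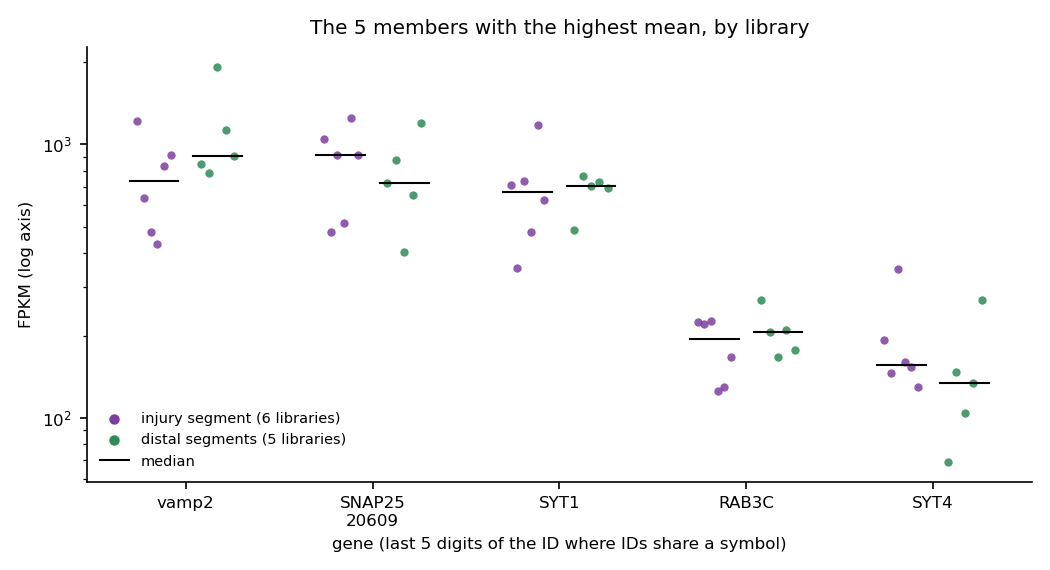
FPKM, on a log axis, of the 5 members with the highest mean (points are libraries, 6 of the injury segment left of 5 of the distal segments, and bars are medians). The groups overlap for each gene, and vamp2, SNAP25 and SYT1 lie above RAB3C and SYT4.

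Among the calcium sensors a single synaptotagmin stood far above the others. SYT1 (ENSDARG00000030614), the calcium sensor of fast synchronous release, ran from 355 through 669.6 to 1175 FPKM at the injury, against 485, 767, 706, 731 and 693 FPKM in the distal segments. The distal libraries lay inside the range of the injury libraries (difference -0.07, SE 0.39, limma adjusted p = 0.974). SYT4, a synaptotagmin found on dense core vesicles, had 129.6, 157 and 349 FPKM (lowest, median and highest) at the injury, against 69.0, 147, 104, 134 and 269 FPKM in the distal segments (difference 0.44, SE 0.57, limma adjusted p = 0.846). SYT11 (ENSDARG00000057913), a relative of SYT4 known for a part in membrane retrieval, had 66.8, 87.1 and 134 FPKM at the injury, against 71.9, 32.7, 81.8, 90.5 and 184 FPKM in the distal segments (difference 0.22, SE 0.64, limma adjusted p = 0.942).

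Every other synaptotagmin, DOC2 and rabphilin ID had a mean under 40 FPKM. Of the 36 calcium sensor members, 30 were tested, 12 higher and 18 lower in mean at the injury, and none had a limma p under 0.05, while 4 were at 0 in every library, syt1b, sytl2a, SYTL3 and DOC2A. The nearest to the limma threshold was DOC2B (ENSDARG00000088293), a calcium sensor of spontaneous and asynchronous release, just outside it at a limma p of 0.0504 (difference -2.08, SE 1.02, exact permutation p = 0.0823). It ran from 0 through 3.29 to 39.0 FPKM at the injury, against 26.5, 19.2, 3.95, 14.4 and 31.0 FPKM in the distal segments. The highest value of all was thus an injury library, replicate 3, in a group with a low median. The synaptotagmin relatives syt14b and syt13, thought from mammals not to bind calcium, were named after their values were seen and passed the exact permutation test alone. syt14b (ENSDARG00000001891) ran from 0 through 0.695 to 4.18 FPKM at the injury, against 5.51, 5.28, 3.43, 2.98 and 5.91 FPKM in the distal segments (difference -1.50, SE 0.88, limma p = 0.0983, exact permutation p = 0.0281). syt13 (ENSDARG00000012306) ran from 0 through 7.41 to 11 FPKM at the injury, against 19.3, 22.6, 7.42, 11.4 and 17.2 FPKM in the distal segments (difference -1.76, SE 0.95, limma p = 0.0746, exact permutation p = 0.0476). Both overlapped between the segments, and under limma syt14b was called in 8 and syt13 in 5 of the 25 alternatives.

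The SNARE regulators held 2 of the 5 lower genes, beside the tomosyns, which overlapped between the segments. STXBP5L, or tomosyn-2, had 17.0, 32.2 and 55.8 FPKM at the injury, against 29.3, 29.1, 12.6, 80.8 and 16.1 FPKM in the distal segments (difference 0.21, SE 0.78, limma adjusted p = 0.959). STXBP5 (ENSDARG00000002656), or tomosyn-1, had 11.7, 29.2 and 77.4 FPKM at the injury, against 33.7, 41.9, 4.94, 28.2 and 25.6 FPKM in the distal segments (difference 0.36, SE 0.82, limma adjusted p = 0.923). Tomosyns hold syntaxin in a form that cannot fuse vesicles.

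STXBP4 (ENSDARG00000076997), or synip, known in mammals as a syntaxin-4 partner in insulin-driven glucose transporter traffic, was at 1.82, 0, 0, 0.0444, 0 and 0 FPKM in injury replicates 1 to 6, against 20.8, 0, 17.0, 0 and 29.3 FPKM in distal replicates 1 to 5. It was high in 3 distal libraries and in no injury library, but the other 2 distal libraries were at 0, so the groups overlapped (difference -2.45, SE 1.00, limma p = 0.0211, adjusted p = 0.838, exact permutation p = 0.106). Without distal replicate 5 the limma p was 0.0857, and leaving out injury replicate 5 or 6 or distal replicate 1 or 3 also took it to 0.05 or above. CPLX1 (ENSDARG00000111920), complexin-1, which clamps and then promotes fusion of SNARE complexes, was at 4.0, 28.8, 0, 0, 17.0 and 32.7 FPKM in the injury libraries, against 15.3, 122, 6.76, 44.7 and 54.5 FPKM in the distal libraries. The groups overlapped (difference -2.30, SE 1.07, limma p = 0.0396, adjusted p = 0.838, exact permutation p = 0.104). This call was the least stable of the 5, holding in 12 of 25 alternative settings, and without distal replicate 2 the limma p was 0.146. It was also lost when injury replicate 1, 3, 4 or 5 or distal replicate 1, 4 or 5 was left out.

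The other complexins overlapped between the segments and gave no call. Complexin-2 was present as cplx2a (9.95, 26 and 82.6 FPKM at the injury, against 9.80, 0, 29.3, 17.5 and 57 FPKM in the distal segments) and as CPLX2 (ENSDARG00000061918), which had 5.70, 11.1 and 16.1 FPKM at the injury, against 31.4, 5.64, 12.4, 7.12 and 14.0 FPKM in the distal segments. The ribbon synapse complexins CPLX3 and CPLX4 (6 IDs with cplx4c) reached at most 1.17 FPKM in any library, and 3 of these IDs were at 0 in all 11. Of the 19 SNARE regulator members, 14 were tested, 8 higher and 6 lower in mean at the injury.

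Proteins of the vesicle membrane and the synapsins gave 2 further lower genes. SYNGR3 (ENSDARG00000025034), a synaptogyrin, ran from 42.2 through 93.2 to 126 FPKM at the injury, against 82.8, 122, 43.1, 119.7 and 125 FPKM in the distal segments (difference -0.12, SE 0.63, limma adjusted p = 0.975). Synaptophysin sypa, an abundant vesicle protein that binds synaptobrevin, had 28.1, 76.1 and 158 FPKM at the injury, against 62.5, 0, 83.2, 51.3 and 31.6 FPKM in the distal segments (difference 1.59, SE 0.95, limma adjusted p = 0.838). This was the largest positive difference of any member, and it was 0.44 without distal replicate 2, the only library with sypa at 0. Synapsin syn1 had 27.8, 54.2 and 77.4 FPKM at the injury, against 10.2, 54.4, 15.7, 33.2 and 46.5 FPKM in the distal segments (difference 0.81, SE 0.76, limma adjusted p = 0.838).

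SYNGR1 (ENSDARG00000002564), synaptogyrin-1, was at 22.5, 0, 0, 0, 13.3 and 12 FPKM in the injury libraries, against 33.8, 17.2, 24.9, 43.9 and 31.3 FPKM in the distal libraries. It was lower in 5 of the 6 injury libraries than in any distal library, and injury replicate 1 exceeded only distal replicate 2 (difference -2.89, SE 1.01, limma p = 0.00794, adjusted p = 0.838, exact permutation p = 0.0238). The unadjusted call held in all 25 alternative settings. A second ID of the same symbol, ENSDARG00000103577, singled out after its values were seen, was at 6.08, 4.76 and 0.499 FPKM in injury replicates 1, 5 and 6 and at 0 in injury replicates 2 to 4, against 0 in all 5 distal libraries (difference 0.99, SE 0.57, limma adjusted p = 0.838). The synapsin syn2b (ENSDARG00000101054) was at 4.06, 0, 0, 6.70, 9.08 and 8.97 FPKM at the injury, against 4.1, 23.6, 9.77, 39.5 and 29.6 FPKM in the distal segments. Its highest injury library lay below 4 of the 5 distal libraries (difference -2.15, SE 0.97, limma p = 0.0347, adjusted p = 0.838, exact permutation p = 0.0368). Without distal replicate 4 its limma p was 0.0791, and the call was also lost without injury replicate 2 or 3 or distal replicate 2 or 5. Of the 16 members of this class, 15 were tested, 8 higher and 7 lower in mean at the injury.

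The SV2 glycoproteins, which are carried by synaptic and dense core vesicles, overlapped between the segments. SV2A had 17.3, 23.9 and 87.5 FPKM at the injury, against 29.2, 15.3, 24.3, 20.9 and 20.9 FPKM in the distal segments (difference 0.37, SE 0.77, limma adjusted p = 0.91). SV2B had 4.30, 31.4 and 71.3 FPKM at the injury, against 23.6, 71.7, 16.1, 12.5 and 29.2 FPKM in the distal segments (difference 0.03, SE 0.84, limma adjusted p = 0.995). For SV2A the highest library was injury replicate 3, and the other 10 libraries lay between 15.3 and 29.2 FPKM.

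Among the small GTPases, RAB3C, a vesicle RAB3, was the steadiest of the members with a mean of at least 100 FPKM, with an SD within groups of 0.35 on the log2 scale. It ran from 126 through 194 to 226 FPKM at the injury, against 269.8, 207, 167, 209 and 177 FPKM in the distal segments (difference -0.20, SE 0.51, limma adjusted p = 0.933). RAB3A, the main RAB3 of mammalian synapses, had 11.7, 99.1 and 142 FPKM at the injury from ENSDARG00000043835, against 90.1, 2.92, 199.6, 90.6 and 62.3 FPKM in the distal segments (difference 0.46, SE 0.89, limma adjusted p = 0.901). From ENSDARG00000056347 RAB3A had 0, 11.6 and 25.8 FPKM at the injury, against 17.6, 52.8, 7.53, 26.1 and 13.0 FPKM in the distal segments (difference -1.63, SE 1.01, limma adjusted p = 0.838). In distal replicate 2, where the first ID was at its lowest, the second was at its highest. RAB27A was at 0 in every library. RAB27B (ENSDARG00000087762) was at 8.64 and 2.97 FPKM in injury replicates 5 and 6, against 36.4 and 3.56 FPKM in distal replicates 1 and 5. It was at 0 in the other libraries. Of the 8 GTPase members, 6 were tested, 2 higher and 4 lower in mean at the injury, none with a limma p under 0.05.

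The active zone and priming genes had lower levels than the SNAREs and held the member with the lowest p. RIMS3 (ENSDARG00000062305), a short RIM protein of the active zone that lacks the RAB3-binding part of RIM1 and RIM2, was at 1.26, 0, 0, 0, 4.64 and 3.49 FPKM in the injury libraries, against 10.5, 14.9, 23.3, 26.8 and 7.69 FPKM in the distal libraries. RIMS3 lay lower in all 6 injury libraries than in all 5 distal libraries, as did 0.186% of all genes tested, and it was the only member whose groups did not overlap. No member lay higher in every injury library than in every distal library, while 0.0662% of all genes did. The difference was -3.03 (SE 0.90, limma p = 0.00229, adjusted p = 0.838, exact permutation p = 0.00433). The recovered fragments were 27, 0, 0, 0, 76 and 68 at the injury, against 236, 288, 494, 455 and 158 in the distal segments. A count of 0 allows up to 3 fragments, or 0.132, 0.160 and 0.154 FPKM in injury replicates 2, 3 and 4, for counting error only. The unadjusted call held in all 25 alternative settings, with limma p between 0.000223 and 0.0110, while the adjusted p stayed between 0.600 and 0.935.

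**Figure D3:**
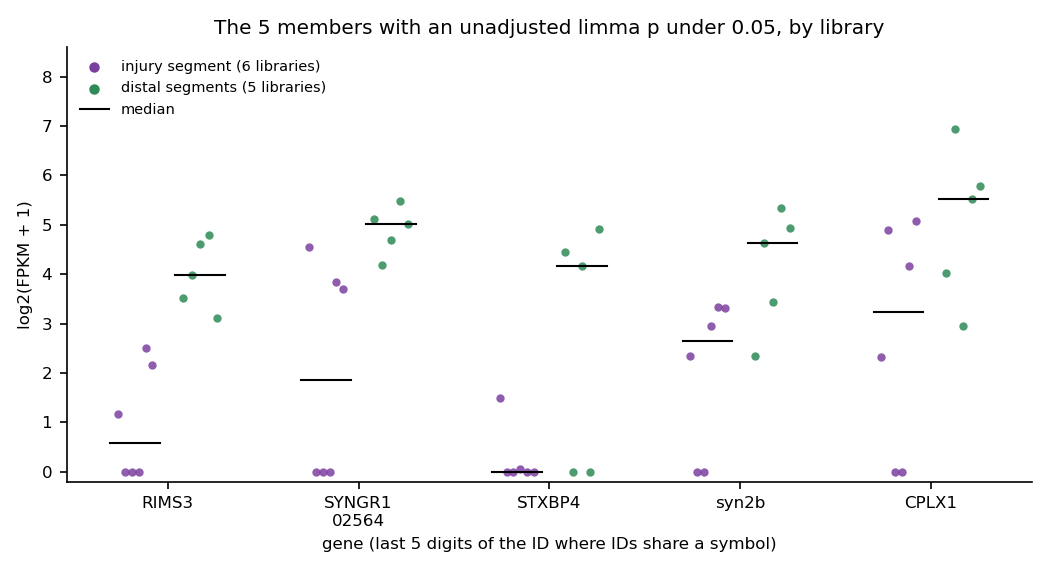
Levels in log2(FPKM + 1) of the 5 members with an unadjusted limma p under 0.05 (points are libraries, 6 of the injury segment left of 5 of the distal segments, and bars are medians). RIMS3 is the only one whose groups do not overlap, and each of the 5 has at least 2 injury libraries at 0.

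The longer RIM proteins, which bind RAB3 and calcium channels, gave no call with all libraries. rims2a had 8.57, 16.1 and 72.3 FPKM at the injury, against 24.0, 0, 13.4, 8.22 and 32.9 FPKM in the distal segments (difference 0.98, SE 0.96, limma adjusted p = 0.838). rims2b had 0, 32.9 and 44.7 FPKM at the injury, against 0, 8.99, 9.30, 14.0 and 14.0 FPKM in the distal segments (difference 1.20, SE 1.05, limma adjusted p = 0.838). Leaving out injury replicate 3, the only injury library at 0, took the rims2b difference to 2.02, with a limma p of 0.0259. Distal replicate 1, also at 0, was kept in that setting. Over all 24178 genes, 402 were then called higher at the injury, against 159 with all libraries. The RIMS1 IDs and RIMS2 gave no call.

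Priming factors overlapped between the segments. UNC13B, a Munc13 that opens syntaxin for SNARE assembly, had 0.960, 13.4 and 32.9 FPKM at the injury, against 44.6, 23.4, 6.64, 26.8 and 17.2 FPKM in the distal segments (difference -0.75, SE 0.90, limma adjusted p = 0.843). cadpsa, which encodes a CAPS protein that primes dense core vesicles, had 9.94, 16.3 and 44.6 FPKM at the injury, against 24.5, 23.0, 19.3, 27.8 and 14.9 FPKM in the distal segments (difference -0.28, SE 0.79, limma adjusted p = 0.942). Its paralog cadpsb had 3.07, 12.8 and 27.3 FPKM at the injury, against 8.83, 7.37, 7.65, 12.9 and 14.2 FPKM in the distal segments (difference 0.08, SE 0.86, limma adjusted p = 0.989). The scaffolds bassoon and piccolo were detected in 10 or 11 libraries at means of 3.28 to 10.2 FPKM. All 19 members of this class were tested, 9 higher and 10 lower in mean at the injury, and RIMS3 alone had a limma p under 0.05.

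The 5 genes lower at the injury share a feature of the libraries. All 5 were at 0 in injury replicate 3, and all but CPLX1 were at 0 in injury replicate 2, the 2 libraries with the fewest genes detected. Members above 0 numbered 81, 43, 39, 60, 88 and 94 in injury replicates 1 to 6, against 72, 57, 80, 64 and 88 in distal replicates 1 to 5, and apart from the 4 libraries with the most genes, each library with more genes at 1 FPKM or more also had more members above 0. When injury replicates 2 and 3 were left out, an alternative chosen after seeing the data, 5 of the 96 members had a limma p under 0.05. Over all 24178 genes, 880 were called higher and 209 lower. Of the members, RIMS3, SYNGR1 (ENSDARG00000002564) and DOC2B were lower, and rims2b and SYNGR1 (ENSDARG00000103577) higher. Only 2 of these were also called with all libraries. The calls of STXBP4, syn2b and CPLX1 were lost. RIMS3 did not overlap here either, which was fixed in advance, since leaving out libraries cannot make separate groups overlap. In that direction 0.302% of all genes did not overlap, and no member lay wholly higher, as 1.44% of all genes did. Over all genes this setting turned the split of calls, with 80.8% of the 1089 genes with a limma p under 0.05 higher at the injury, against 24.5% of 649 with all libraries, and the median of the members was then 0.18, against 0.22 over all genes.

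**Figure D4:**
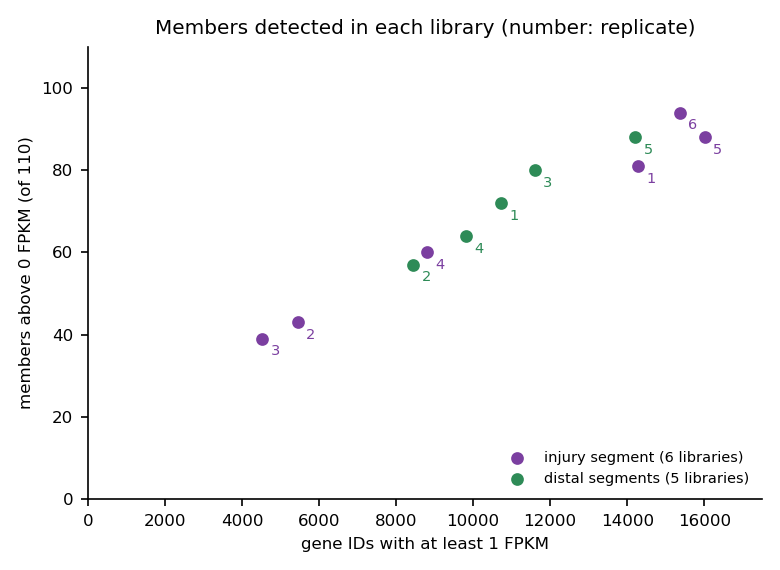
Members above 0 FPKM (of 110) against gene IDs with at least 1 FPKM in each library, numbered by replicate (6 injury and 5 distal libraries). Injury replicates 2 and 3 have 43 and 39 members above 0 and lie below all other libraries on both axes.

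Marker lists of other cell types were summed in each library, and no marker passed an adjusted limma p of 0.05. The 7 oligodendrocyte IDs summed to 35.0, 63.6, 0, 41.7, 60.5 and 752 FPKM in injury replicates 1 to 6, against 708, 576, 463, 253 and 160.1 FPKM in distal replicates 1 to 5, with 6 of 7 lower in mean at the injury and 1 at a limma p under 0.05. That gene was mbpa, a myelin basic protein gene, at 0.590, 8.82, 0, 37.0, 35.1 and 234 FPKM in the injury libraries, against 530.1, 531, 299, 237 and 129 FPKM in the distal libraries. Only injury replicate 6 reached the distal range (difference -4.54, SE 1.04, limma adjusted p = 0.838). In injury replicate 6, where this sum was the highest of all, RIMS3 was at 3.49 FPKM, SYNGR1 (ENSDARG00000002564) at 12 FPKM and STXBP4 at 0. In the same library syn2b was at 8.97 FPKM and CPLX1 at 32.7 FPKM, the highest CPLX1 value at the injury. The distal medians of these genes were 14.9, 31.3, 17.0, 23.6 and 44.7 FPKM, in that order. This is a single library, and whether these markers have a part in the differences of the members was not tested. Of the motor neuron markers (5 IDs), 3 were tested, and all 3 were higher in mean at the injury. The 5 IDs summed to 0 to 12.1 FPKM at the injury, against 0 to 0.0740 FPKM in the distal segments. Markers of cerebrospinal fluid-contacting neurons (4 IDs, 3 of 4 higher in mean) summed to 0 to 78.2 FPKM, against 0 to 7.96 FPKM. In both lists the highest sum was that of injury replicate 6. The other injury libraries reached at most 5.17 FPKM for motor neurons and 8.47 FPKM for cerebrospinal fluid-contacting neurons. Markers of radial glia (12 IDs, 9 tested, of which 8 were higher in mean at the injury, with a median difference of 0.92) summed to 112 to 549.8 FPKM at the injury, against 53.9 to 765 FPKM in the distal segments, those of microglia and macrophages (5 IDs, 1 of 4 tested higher in mean) to 0 to 335 FPKM, against 0.0469 to 257 FPKM, and the endothelial ones (2 IDs) to at most 0.0727 FPKM. Injury replicate 6 also held the highest injury sums of radial glia and of microglia and macrophages. The other injury libraries reached at most 495 FPKM for radial glia and 18.9 FPKM for microglia and macrophages. Neuronal markers outside the members (10 IDs) summed to 989 to 1838 FPKM at the injury, against 911 to 1493 FPKM in the distal segments. None of these had a limma p under 0.05.

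The 27 members above 0 in all 11 libraries had differences between -0.75 and 0.81, with a median of 0.08, and their lowest limma p was 0.131. Every member with an unadjusted limma p under 0.05 was at 0 in some injury libraries. This selection thus left them out by its definition, and its small differences were partly fixed by it. The SD within groups on the log2 scale had a median of 0.57 for members with a mean of at least 100 FPKM (0.35 to 1.07), of 1.58 between 10 and 100 FPKM and of 1.41 between 1 and 10 FPKM. Above 100 FPKM the spread between libraries was thus mostly less than in the members below.

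By role, the summed levels of the members overlapped between segments in all 6 classes. SNARE members summed to 1278 to 2594 FPKM at the injury, against 1907 to 2596 FPKM in the distal segments. Calcium sensors summed to 663 to 1674 FPKM, against 836 to 1411 FPKM, vesicle membrane proteins and synapsins to 230.4 to 608 FPKM, against 270.4 to 429.6 FPKM, and SNARE regulators to 159 to 411 FPKM, against 211 to 418 FPKM. Small GTPases summed to 144 to 403 FPKM, against 276 to 414 FPKM, and active zone and priming genes to 135 to 264 FPKM, against 133 to 168 FPKM. The SNARE sum was thus far above that of the active zone genes in both segments, and the median differences of the classes ran from -0.38 for the small GTPases to 0.06 for the SNARE regulators.

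Within duplicated genes, the same copy was the higher one in every library for some symbols, while for others the order varied. The higher ID was set by its mean over these same libraries, which favours a constant order. Compared were 11 symbols with 2 member IDs that both averaged at least 0.1 FPKM, after their values were seen and with no test. The same ID was the higher one in all 11 libraries for 5, among them SNAP25, STXBP5, SYNGR3 and BSN. SYT6 and CPLX4 also have 2 member IDs, but an ID of each averaged under 0.1 FPKM, and they were not compared. The ratio of the SNAP25 IDs in a library ran from 2.77 to 36.4 with a median of 6.17, that of the SYNGR3 IDs from 1.81 to 9.46 with a median of 3.74. The STXBP5 IDs had means of 30.7 FPKM for ENSDARG00000002656 and 0.523 FPKM for ENSDARG00000029234. RAB3A kept its order in 10 of 11 libraries, with distal replicate 2 as the exception, and SYT11 in 9 of 11. For SYT9 the ID with the higher mean was the higher one in 4 libraries and the lower one in 2. How reads were shared between near-identical copies is not given in the sources used here, so the ratio of 2 IDs also depends on how similar their sequences are.

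**Figure D5:**
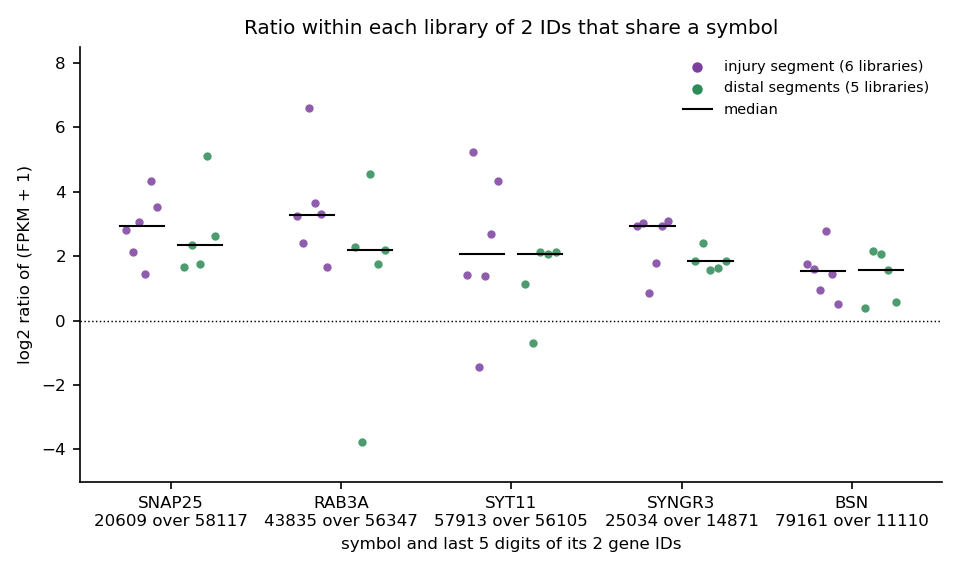
Log2 ratio of (FPKM + 1) of 2 IDs that share a symbol in each library, for the 5 symbols with a higher ID of at least 10 FPKM in mean and both IDs above 0 in at least 9 libraries (6 injury libraries left of 5 distal libraries, bars are medians). Points above the dotted line are libraries in which the first ID is higher, as in all 11 for SNAP25, SYNGR3 and BSN.

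Where the symbols themselves tell 2 copies apart by a final a or b, the balance of the copies was tested between segments. The 7 pairs were compared by the log2 ratio of (FPKM + 1) in each library with an exact two-sided permutation test over the libraries, in which the smallest possible p is 0.00216. No pair passed 0.05, with exact permutation p from 0.0952 to 0.926, and from 0.629 to 0.926 after Benjamini-Hochberg adjustment over the 7 pairs. The largest shift was that of vamp1a over vamp1b, whose mean log2 ratio was 3.13 at the injury, against 5.07 in the distal segments (difference -1.95, exact permutation p = 0.0952). vamp1b was above 0 only in injury replicates 5 and 6, at 6.84 and 11.7 FPKM, against 0 in all distal libraries. For sypa over sypb the mean log2 ratio was 2.95 at the injury, against 1.49 in the distal segments (difference 1.47, exact permutation p = 0.180). sypb ran from 0 through 11 to 34.4 FPKM at the injury, against 22.8, 0.386, 16.3, 14.2 and 5.06 FPKM in the distal segments, and sypa was the higher copy in 10 of 11 libraries. cadpsa exceeded cadpsb in 9 of 11 libraries, while rims2a exceeded rims2b in 4. The pairs UNC13A and UNC13B and SV2A and SV2B, which the same wording takes, are separate genes of their families in mammals as well, and their ratios shifted by 0.08 and 0.34.

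Other genes of the vesicle cycle, outside the members, were called about as often as all genes. Of a list of 88 IDs (fusion partners, active zone scaffolds, chaperones, endocytosis and the vesicular proton pump), 84 were tested, 32 higher and 52 lower in mean at the injury, with a median difference of -0.27, against -0.04 over all genes. None passed an adjusted limma p of 0.05. At an unadjusted limma p under 0.05, 2 of the 84 were lower and none was higher, against 490 lower (2.03%) and 159 higher (0.658%) of the 24178 genes tested. The 2 lower genes were NAPA (ENSDARG00000020405), an adaptor of the SNARE-recycling ATPase (difference -2.24, SE 0.95, limma adjusted p = 0.838), and sh3gl3a, an endophilin of vesicle endocytosis (difference -1.60, SE 0.77, limma adjusted p = 0.838). The endophilin sh3gl3a ran from 3.70 through 27.1 to 50.1 FPKM at the injury, against 76.6, 65.6, 53.5, 87.4 and 63.3 FPKM in the distal segments. Its groups thus did not overlap, as was so in this direction for 0.186% of all genes tested.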

How the data were processed

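ISNs were sorted from Tg(tph2:GFP) fish and their RNA was amplified with a low-input SMART-Seq v4 kit. The submitters' processing notes name HISAT2 2.0.5, HTSeq 0.9.1 and the build danRer11. The deposited FPKM values were calculated by the authors from gene length and reads mapped to the gene, and no scaling between libraries is stated. Whether counting used strand is not given in the sources used here, so overlapping genes are uncertain. The study's DESeq model needs counts and was not refitted. Whole fragments were recovered from the FPKM values with the smallest gene length that fits, and cDNA copies are not independent molecules.

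Symbols came from a reference joined on gene ID (29201 IDs). Genes averaging 0.1 FPKM or more were fitted with limma 3.58.1 (trend) in R 4.3.3 on log2(FPKM + 1), tested on simulated data. Paralog ratios, and single members after seeing the data, used exact permutation in Python 3.11.15. Named are members with an unadjusted p under 0.05 or groups that do not overlap, the 3 highest of each role, and both genes of each tested pair with means of at least 10 FPKM. Other names were chosen after their values were seen. Some genes that this rule names are not reported here. Members and lists were chosen with earlier results of these data known. Of the names in the lists, 4 of 88 vesicle-cycle names and 5 of 57 marker names had no match.

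Alternatives were each library left out, a replicate block, genes detected as a covariate, voom on the recovered fragments, a prior that is robust or has no trend, array weights, scaling by quantiles, by median ratio or to a sum of 1000000, a filter at 1 FPKM or none, other pseudocounts (0.1, 0.01) and the literal reading of the rule.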

Additional observations from a re-analysis of the deposited data

Results flagged for a closer look

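In 9 of 56 groups of values tested among the named genes, 1 library stood far from the others of its group (Dixon's test, which flags about 1 in 20 groups by chance, or 2.8 of 56). At the injury, these were STXBP4 in replicate 1 at 1.82 FPKM, RAB3A (ENSDARG00000043835) in replicate 4 at 11.7 FPKM, rims2b in replicate 3 at 0 FPKM and SV2A in replicate 3 at 87.5 FPKM. In the distal segments they were STXBP5 (ENSDARG00000002656) in replicate 3 at 4.94 FPKM, SNAP25 (ENSDARG00000058117) in replicate 4 at 18.0 FPKM and SYT1 in replicate 1 at 485 FPKM. Both sypa and rims2b had a single distal library at 0 FPKM, replicate 2 for sypa and replicate 1 for rims2b. Injury replicate 3, one of the libraries with the fewest genes detected, accounts for 2 of the 9.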

How the results depend on the processing

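The differences of RIMS3 and SYNGR1 (ENSDARG00000002564) kept their direction and an unadjusted limma p under 0.05 in all 25 alternatives, whereas STXBP4 and syn2b kept it in 17 each and CPLX1 in 12, all 3 staying lower at the injury throughout. No member passed an adjusted p of 0.05 in any of them, the lowest being 0.600. The count of members with an unadjusted p under 0.05 was 5, and it was 3 with a pseudocount of 0.01, 9 with a prior without trend, 10 with genes detected as a covariate (1 higher), 9 with voom (1 higher), and 2 to 7 with a library left out, lowest without distal replicate 5 and 3 without distal replicate 4. For the other vesicle-cycle genes it was 2, against 1 with a pseudocount of 0.1 and with a mean of at least 1 FPKM, and 0 to 4 with a library left out. Over all genes no adjusted p was under 0.05, against 2 genes with a prior without trend, 5 with voom, and 0 to 1 with a library left out. At an unadjusted p, 649 genes were called, against 1130 with the covariate, 1160 with voom and 1089 without injury replicates 2 and 3, the last chosen after seeing the data. The share of those calls that were higher at the injury was 24.5%, and it was 40.4% with quantile normalization, 43.0% with array weights, 38.6% with the covariate, 43.8% with voom, 53.7% without injury replicate 2, 54.3% without injury replicate 3, 46.2% without injury replicate 4 and 35.5% without distal replicate 5. It was lowest at 15.3%, 17.1% and 20.2% without distal replicates 2, 4 and 3, at 18.6% without injury replicate 5 and at 18.7% with the replicate block. The causes were not tested. None of the paralog ratios changed its call.

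Injury and distal libraries share replicate numbers, but the labels do not tie a number to a fish. Deviations of same-numbered libraries correlated over 0.1 in 1 of 5 pairs, and 2 of 5 distal libraries correlated best with their own number. Such correlations cannot show whether same-numbered libraries came from the same fish, so the pairing is not known. The main fit took the libraries as unpaired. With a replicate block on the numbers, 6 members had an unadjusted p under 0.05, 4 of them among the 5 above (STXBP4 was lost, and SYT6 and syt14b were gained). So had 7 of the other vesicle-cycle genes and 696 of all genes. Injury replicate 6 has no distal library of its number, so it did not bear on the differences in this fit. Leaving that library out without a block called the same 6 members, so these changes cannot be credited to the pairing. A value of 0 limits a member to at most 3 fragments in that library, for counting error only.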
